A study of Mus musculus with 4 samples.

Results

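Osteoclasts are the multinucleated cells that resorb bone, and this report describes 34 genes that they use to do so in the skull bones of wild-type and *Twist1*+/- mice. The 34 genes were taken by symbol from a list of osteoclast effector genes and subunits of the vacuolar proton pump, and all of them were found among the 23946 gene symbols measured in every library. The rule uses gene names only, although the list was drawn up with earlier results of these data known. The list holds 2 secreted enzymes, 9 receptors, adaptors and fusion proteins of the cell surface, 3 regulators (2 transcription factors and a kinase), 5 genes of proton supply, ion exchange and energy, 2 genes of vesicle traffic and 13 subunits of the pump.

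The study measured RNA of the frontal bone, which derives from neural crest, and of the parietal bone, which derives from mesoderm, to compare mice that are heterozygous for *Twist1* with wild-type mice. Both genotypes were on the C57BL/6J strain and were taken at postnatal day 21, with no further treatment. The *Twist1*+/- allele is carried in every cell of the animal. The tissue was whole bone rather than sorted osteoclasts, and it included the pericranium and the dura mater, so every value below is an average over many cell types. The files analysed here hold 1 value per gene for each genotype and bone, hence 4 sets of values, which are called libraries below. The study's methods name several mice of each strain and speak of replicates, but how these enter the single deposited value is not given in the sources used here. No difference between the 4 has a replicate check here, so no test was possible and none is given.

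An osteoclast forms by fusion of precursors of the monocyte lineage, driven by the ligand RANKL and by macrophage colony-stimulating factor. It seals off a patch of bone, pumps protons and chloride through its ruffled border to dissolve the mineral, and releases cathepsin K and other enzymes to digest the collagen that is left. Loss of several of these genes, among them those for the pump subunit a3, the chloride transporter ClC-7 and its partner OSTM1, causes osteopetrosis, in which bone is laid down and not resorbed.

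*Twist1* was checked first. Frontal bone held 59.0 FPKM in wild-type and 30.4 FPKM in *Twist1*+/- mice. The parietal values were 52.5 FPKM for wild type and 50.7 FPKM for the library labelled *Twist1*+/-. FPKM counts fragments per kilobase of transcript and is scaled to the size of the library, so levels of different genes can be compared per length. In frontal bone the value of the *Twist1*+/- library was lower by 0.96 on the log2 scale, whereas in parietal bone the difference was -0.05. The last library is therefore named by its label throughout, since as deposited its *Twist1* level did not separate it from wild type. Against genes of like GC content, a measure described further on, the difference was -0.62 in parietal and -0.99 in frontal bone. Values of a gene are given below in a fixed order, in which the wild-type frontal value comes first, then wild-type parietal, then *Twist1*+/- frontal, and last the library labelled *Twist1*+/- parietal.

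The promoters of the members were read for a sequence that many lysosomal and osteoclast genes share. The transcription factors of the MITF and TFE family are known to bind the letters TCACGTGA and, for MITF, TCATGTGA, and MITF is itself a member. Windows from 250 bases before to 50 bases after the transcription start were taken from RefSeq (GRCm38.p6), which held an entry for 22 of the 34 members, and each was found exactly once in mm9, the build of the deposited values. Both strands were searched, so TCACATGA counts as TCATGTGA, and no run of letters can match both words. A match was present in 5 of the 22 members and in 2.24% of all 27025 genes of the table. A gene can have several starts, and counted by window a match was present in 5 of 35 member windows and in 1.94% of all 32851. The 5 windows are printed because they show where in the promoter the letters lie. Capitals mark the match, and the sequences run 5′ to 3′ on the strand of the gene.
*Acp5*, mm9 chr9:21934993-21935292, minus strand: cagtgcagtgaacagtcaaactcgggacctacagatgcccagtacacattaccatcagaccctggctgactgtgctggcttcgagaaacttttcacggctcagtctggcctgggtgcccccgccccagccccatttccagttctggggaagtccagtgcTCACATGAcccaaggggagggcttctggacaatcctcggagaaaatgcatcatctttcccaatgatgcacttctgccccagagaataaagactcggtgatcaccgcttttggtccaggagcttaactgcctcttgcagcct
*Clcn7*, mm9 chr17:25270086-25270385, plus strand: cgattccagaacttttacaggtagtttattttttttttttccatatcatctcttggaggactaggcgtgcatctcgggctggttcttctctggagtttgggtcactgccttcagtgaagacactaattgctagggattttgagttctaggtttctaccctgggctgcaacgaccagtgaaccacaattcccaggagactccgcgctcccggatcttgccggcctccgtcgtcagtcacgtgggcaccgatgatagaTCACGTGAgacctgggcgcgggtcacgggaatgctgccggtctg
*Atp6v0c*, mm9 chr17:24306346-24306645, minus strand: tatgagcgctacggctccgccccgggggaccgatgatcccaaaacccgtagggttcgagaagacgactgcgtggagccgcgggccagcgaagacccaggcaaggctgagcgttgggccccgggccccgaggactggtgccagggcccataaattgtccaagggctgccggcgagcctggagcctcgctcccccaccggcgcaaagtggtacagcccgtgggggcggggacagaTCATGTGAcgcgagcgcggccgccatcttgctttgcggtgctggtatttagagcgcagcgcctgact
*Atp6v0e*, mm9 chr17:26813091-26813390, plus strand: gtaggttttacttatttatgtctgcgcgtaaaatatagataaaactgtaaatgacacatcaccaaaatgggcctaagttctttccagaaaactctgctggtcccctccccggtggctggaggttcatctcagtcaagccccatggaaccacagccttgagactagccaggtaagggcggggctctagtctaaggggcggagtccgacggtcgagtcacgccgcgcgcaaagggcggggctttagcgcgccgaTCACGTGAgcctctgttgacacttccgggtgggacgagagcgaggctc
*Atp6v1a*, mm9 chr16:44139323-44139622, minus strand: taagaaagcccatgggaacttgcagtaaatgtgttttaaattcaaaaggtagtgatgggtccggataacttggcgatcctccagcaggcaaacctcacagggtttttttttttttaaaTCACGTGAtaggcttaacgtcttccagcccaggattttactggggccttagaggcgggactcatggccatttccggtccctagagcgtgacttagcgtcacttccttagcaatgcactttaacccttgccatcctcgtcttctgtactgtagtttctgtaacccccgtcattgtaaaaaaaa
*Acp5*, *Atp6v0c* and *Clcn7* have other starts as well, whose windows held no match. Distances are counted from the transcription start that belongs to the printed window. In *Acp5* and *Atp6v1a* the first letter of the match lay 91 and 132 bases before the start. The match began 17 bases before it in *Atp6v0c*, and 2 and 6 bases after it in *Atp6v0e* and *Clcn7*. Of the 5 genes, 3 are pump subunits, 1 encodes the secreted phosphatase and 1 the chloride transporter. A match describes these letters only, and the other 17 members with an entry had none in this window. *Dcstamp*, *Ocstamp*, *Tyrobp*, *Itgb3*, *Siglec15*, *Nfatc1*, *Car2*, *Atp6v0d2*, *Atp6v1b2*, *Atp6v1c1*, *Atp6v1g1* and *Atp6v1h* had no entry.

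All 34 members were at or above 1 FPKM in each of the 4 libraries, and none was listed at 0. Their levels ran from 2.53 FPKM (*Calcr* in wild-type frontal bone) to 4782 FPKM (*Ctsk* in wild-type parietal bone). The first feature of the data was the difference between the bones. Both parietal libraries were above both frontal libraries in 32 of the 34 members, and in 24.6% of the 14760 genes that reached 1 FPKM somewhere. The 2 exceptions were *Mitf* and *Car2*. The second feature was the place of the wild-type parietal library, which was the highest of the 4 for 26 members, against 35.5% of all genes. For all 26 the library labelled *Twist1*+/- parietal came next, an order seen in 16.4% of all genes. That library was itself the highest for 6 members (*Nfatc1*, *Src*, *Slc4a2*, *Ckb*, *Plekhm1* and *Atp6v0c*), against 21.9% of all genes. *Car2* was highest in wild-type frontal bone, as were 27% of all genes, and *Mitf* in *Twist1*+/- frontal bone, as were 15.5%. Summed over the 34 members, the levels were 5046, 13308, 5318 and 9770.1 FPKM in the fixed order, of which *Acp5* and *Ctsk* together gave 2124, 8127, 2618 and 5591 FPKM. These counts depend on the scaling, and at equal *Gapdh* both parietal libraries were on top in 27 members and wild-type parietal bone was highest in 16. In whole bone, fewer osteoclasts and less RNA per osteoclast cannot be told apart, and this holds for every difference below.

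**Figure D1:**
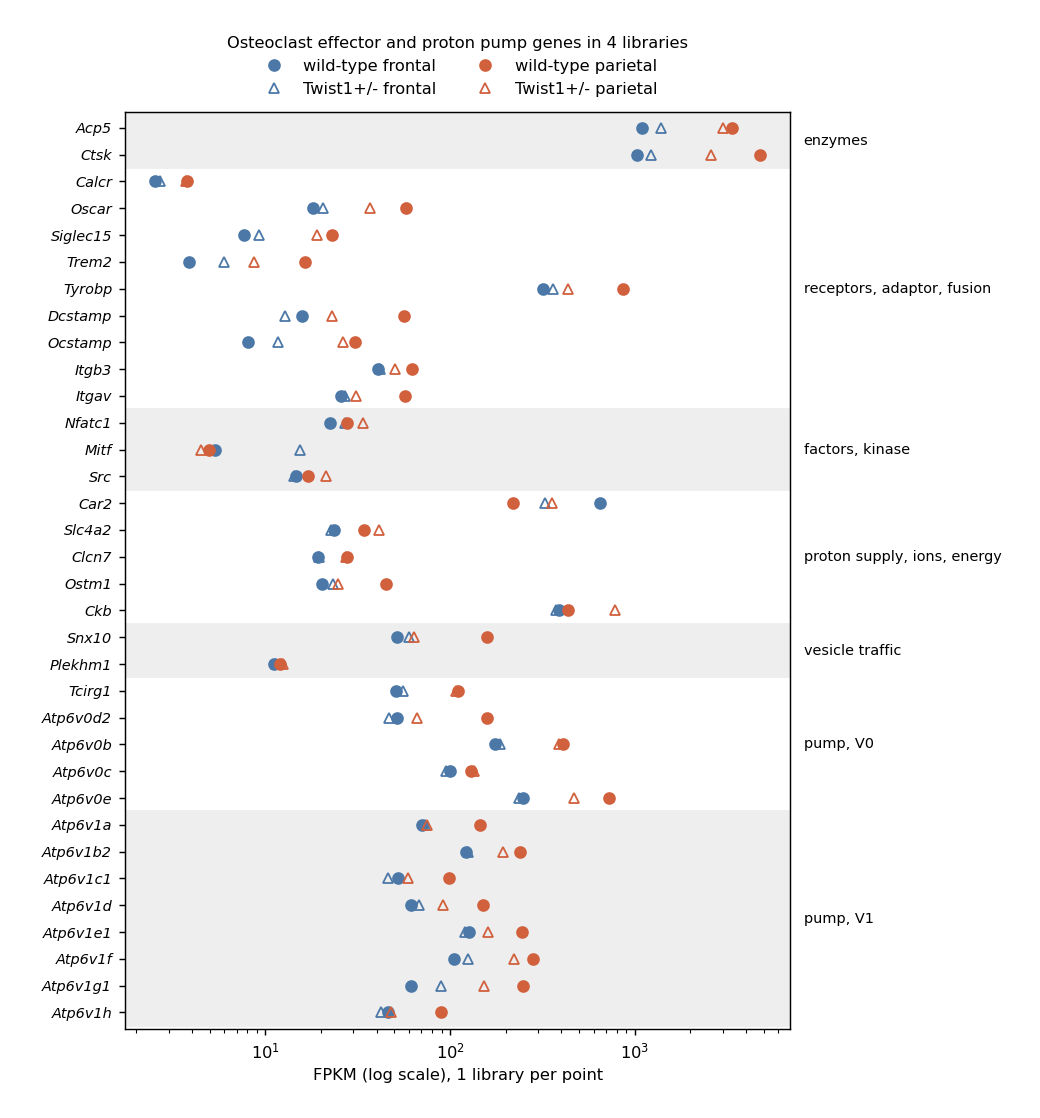
FPKM (log axis) of the 34 members in the 4 libraries, 1 library per genotype and bone, with members ordered by role. Each mark is 1 library, and as deposited 32 of 34 members have both parietal marks to the right of both frontal marks, the exceptions being *Mitf* and *Car2*.

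In the plot of levels by library the order of the bones holds in every role except for *Mitf* among the regulators and *Car2* among the genes of proton supply. The frontal marks of the 2 genotypes lie close together for most genes, while the 2 parietal marks are spread further apart. *Mitf* and *Car2* are the genes whose frontal marks part most.

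The secreted enzymes were the most abundant members. *Acp5*, tartrate-resistant acid phosphatase, the classical histochemical marker of osteoclasts, lies at chr9:21931175-21940190 in mm9 and was 1098, 3345, 1389 and 2990.2 FPKM. *Ctsk*, cathepsin K, the protease that cleaves type I collagen in the resorption pit, lies at chr3:95303208-95313284 and was 1027, 4782, 1229 and 2600.5 FPKM. By level *Ctsk* ranked 12th of all 23946 genes in wild-type parietal bone and 28th in wild-type frontal bone, and *Acp5* ranked 19th and 26th. Both genes were highest in wild-type parietal bone and lowest in wild-type frontal bone, and their frontal libraries differed by 0.34 and 0.26 on the log2 scale. *Ctsk* was 4.66-fold higher and *Acp5* 3.05-fold higher in wild-type parietal than in wild-type frontal bone. Between the parietal libraries *Acp5* differed by -0.16 and *Ctsk* by -0.88 on the log2 scale. That ratio moved with GC content across all genes, as described further on, and against genes of like GC content the 2 enzymes were nearer to each other, at -0.41 and -0.69. The ratio of *Ctsk* to *Acp5* was accordingly 1.43 in wild-type parietal bone and between 0.870 and 0.935 in the other 3 libraries.

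Receptors and their adaptors carry the signals that a precursor needs to become an osteoclast. *Calcr*, the calcitonin receptor, through which calcitonin restrains resorption, was the least abundant member at 2.53, 3.78, 2.67 and 3.72 FPKM. *Oscar*, a receptor that binds collagen and signals through an immunoreceptor adaptor, was 18.2, 57.4, 20.5 and 36.9 FPKM. *Siglec15*, a sialic acid receptor that pairs with DAP12, was 7.63, 22.9, 9.28 and 19.1 FPKM. These 3 receptors shared the order of the enzymes, with both parietal libraries on top. *Trem2*, another receptor that signals through DAP12, was 3.85, 16.5, 5.99 and 8.71 FPKM, and *Tyrobp*, which encodes DAP12, was 317, 861, 362 and 435 FPKM. *Tyrobp* is also used by macrophages, neutrophils and other myeloid cells. In wild-type bone *Trem2* was 4.28-fold higher in parietal than in frontal, and *Tyrobp* 2.72-fold higher. The library labelled *Twist1*+/- parietal was at -0.92 for *Trem2* and -0.98 for *Tyrobp* on the log2 scale against wild-type parietal bone. For *Tyrobp* it lay nearer to both frontal libraries than to wild-type parietal bone, whereas for *Trem2* it lay between the bones.

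The fusion proteins join precursors into the multinucleated cell. *Dcstamp*, which is required on the cell surface for fusion, was 15.8, 56.5, 12.8 and 23.0 FPKM. *Ocstamp*, a related membrane protein of the same process, was 8.02, 30.4, 11.7 and 26.3 FPKM. In wild-type bone they were 3.57-fold and 3.79-fold higher in parietal than in frontal. In the library labelled *Twist1*+/- parietal *Dcstamp* was 2.45-fold lower than in wild-type parietal bone and *Ocstamp* 1.16-fold lower, and against genes of like GC content they were -0.998 and -0.41 on the log2 scale. *Itgb3* and *Itgav* encode the β and α chains of the integrin that anchors the sealing zone to the bone. *Itgb3* was 40.5, 62.3, 41.5 and 50.3 FPKM, and *Itgav*, whose chain also pairs with other β chains in other cells, was 25.7, 57.0, 26.8 and 31.0 FPKM. The 2 frontal libraries differed by 0.04 and 0.06 on the log2 scale, and both parietal libraries were above them.

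Between the wild-type bones each regulator differed by less than any of the enzymes or surface members. As deposited, *Nfatc1* and *Src* had both parietal libraries on top, and *Mitf* did not. *Nfatc1*, the master transcription factor of osteoclast formation, was 22.3, 27.7, 27.1 and 33.6 FPKM, and the wild-type bones differed by 0.31 on the log2 scale. *Src*, the kinase needed for the ruffled border, was 14.7, 17.0, 14.3 and 21.3 FPKM. As deposited, both were highest in the library labelled *Twist1*+/- parietal, at 0.28 (*Nfatc1*) and 0.33 (*Src*) on the log2 scale against wild-type parietal bone. Against genes of like GC content these values were -0.02 and -0.25, so that order did not hold on that measure. *Mitf*, a transcription factor that acts with PU.1 on osteoclast genes and that also serves melanocytes and mast cells, was 5.32, 4.93, 15.4 and 4.50 FPKM. The *Twist1*+/- frontal library alone stood high, at 1.53 on the log2 scale above wild-type frontal bone, and the other 3 libraries lay between 4.50 and 5.32 FPKM. Melanocyte genes were examined after this value was seen. *Pmel*, *Tyr*, *Tyrp1*, *Dct* and *Mlana* were all under 1 FPKM in every library, the highest value being 0.801 FPKM (*Pmel* in the library labelled *Twist1*+/- parietal).

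The genes of proton supply and ion exchange feed the pump and balance its charge. *Car2*, carbonic anhydrase II, which makes protons from carbon dioxide and water, was 652, 219.8, 326 and 356 FPKM. It is the member that ran against the others, with its highest value in wild-type frontal bone and its lowest in wild-type parietal bone. Red cell precursors also express *Car2* at a high level. Between the wild-type bones, the erythroid markers with a value above 0 in both moved with it. Of 10 erythroid genes found, 9 were at or above 1 FPKM in the higher wild-type library, and 6 of these had a value above 0 in both wild-type bones. All 6 were lower in wild-type parietal than in wild-type frontal bone, 4 of them past 3-fold, with a median of -1.97 on the log2 scale. *Slc4a1*, the red cell anion exchanger, was 365, 79.6, 185 and 152 FPKM, and *Klf1*, an erythroid transcription factor, was 74.1, 7.64, 42.3 and 48.3 FPKM. *Alas2*, the most abundant of the 6, did not share the order of *Car2*, at 576, 395, 300 and 338 FPKM. Between the parietal libraries *Alas2* was -0.22 and *Car2* 0.70 on the log2 scale, and 8 of the 9 erythroid genes were higher in the one labelled *Twist1*+/-. The other 3 of the 9 are globin genes listed at 0 in wild-type frontal bone and between 4434 and 27525 FPKM in the other libraries, so the summed erythroid level (1457, 43536, 34214 and 52845 FPKM) is set by them. The part of red cell precursors in the *Car2* values was not tested.

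The other 4 genes of this role followed the bones. *Slc4a2*, the exchanger that removes bicarbonate and brings in chloride, was 23.7, 34.1, 22.7 and 41.4 FPKM. *Clcn7*, the chloride and proton exchanger of the ruffled border, was 19.3, 27.7, 19.6 and 27.4 FPKM, so that each parietal library was 1.40-fold to 1.43-fold above the frontal library of its genotype. *Ostm1*, the β subunit that stabilises ClC-7, was 20.4, 44.9, 23.3 and 24.9 FPKM. Between the parietal libraries *Clcn7* differed by -0.01 and *Ostm1* by -0.85 on the log2 scale, but the transcript of *Clcn7* is richer in GC (54.4%) than that of *Ostm1* (45.1%). Against genes of like GC content the values were -0.26 and -0.37, so the pair was close on that measure. *Ckb*, brain-type creatine kinase, which supplies ATP during resorption and is also abundant in brain, was 391, 434, 376 and 785 FPKM. Its value in the library labelled *Twist1*+/- parietal was above the other 3, by 0.85 on the log2 scale against wild-type parietal bone as deposited and by 0.28 against genes of like GC content. Brain and myelin markers were present in all libraries, at a summed level of 337, 59.3, 357 and 341 FPKM over 10 genes. Between the parietal libraries 9 of these 10 were higher in the one labelled *Twist1*+/-, and their part in the *Ckb* value was not tested.

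Vesicle traffic brings the pump and the enzymes to the ruffled border. *Snx10*, a sorting nexin whose loss causes osteopetrosis, was 51.6, 158, 59.7 and 63.7 FPKM. *Plekhm1*, an adaptor of late endosomes and lysosomes, was 11.1, 12.0, 11.4 and 12.5 FPKM and was the most even member. As deposited, *Snx10* was high in the wild-type parietal library only, while the other 3 libraries lay between 51.6 and 63.7 FPKM. Wild-type parietal bone was 3.06-fold above wild-type frontal bone and 2.48-fold above the library labelled *Twist1*+/- parietal. Against genes of like GC content that labelled library was at -0.71 on the log2 scale against wild-type parietal bone. On the same measure it was 0.48 above *Twist1*+/- frontal bone.

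The vacuolar proton pump consists of a membrane sector (V0), through which protons pass, and a cytoplasmic sector (V1), which hydrolyses ATP. Most subunits are found in every cell, and some have isoforms, of which a3 (*Tcirg1*) and d2 (*Atp6v0d2*) are characteristic of osteoclasts. *Tcirg1* was 51.3, 109.9, 55.9 and 107 FPKM, and the 2 parietal libraries differed by -0.03 on the log2 scale. *Atp6v0d2*, which also takes part in precursor fusion, was 51.7, 159, 46.5 and 65.9 FPKM, with wild-type parietal bone alone standing high as deposited. As deposited, d2 was 2.41-fold lower in the library labelled *Twist1*+/- parietal than in wild-type parietal bone while a3 was level. This difference between the isoforms did not hold against genes of like GC content, where *Tcirg1* was -0.60 and *Atp6v0d2* -0.67 on the log2 scale.

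The remaining V0 subunits are shared with other cells. *Atp6v0b* (subunit c′′) was 175, 408, 186 and 392 FPKM, and *Atp6v0e* (subunit e1) was 247, 726, 237 and 471 FPKM. *Atp6v0c*, the proteolipid that forms the rotating ring, was 99.8, 129.9, 95.6 and 135 FPKM and differed least between the wild-type bones among the 13 pump subunits of the list. The difference between wild-type bones was 1.22 for *Atp6v0b*, 1.55 for *Atp6v0e* and 0.38 for *Atp6v0c* on the log2 scale.

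The 8 subunits of the V1 sector were all higher in wild-type parietal than in wild-type frontal bone, by 0.92 to 2.01 on the log2 scale with a median of 1.01. *Atp6v1g1*, a subunit of the stalk that holds the motor in place, had the largest of these differences and was 61.4, 247, 89.5 and 153 FPKM. *Atp6v1a*, the catalytic subunit, was 70.1, 145, 73.0 and 75.1 FPKM, and *Atp6v1h*, a regulatory subunit, was 46.0, 89.5, 42.1 and 47.8 FPKM. For *Atp6v1a* and *Atp6v1h* the library labelled *Twist1*+/- parietal lay beside the frontal libraries as deposited. Against genes of like GC content it was 0.35 and 0.50 above *Twist1*+/- frontal bone on the log2 scale, so that closeness depended on the GC trend. *Atp6v1b2*, the B subunit, *Atp6v1e1* of the stalk and *Atp6v1f* of the rotor were between 106 and 282 FPKM in every library, and *Atp6v1c1* of the stalk base and *Atp6v1d* of the rotor between 46.4 and 152 FPKM. All 5 had both parietal libraries above both frontal libraries.

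**Figure D2:**
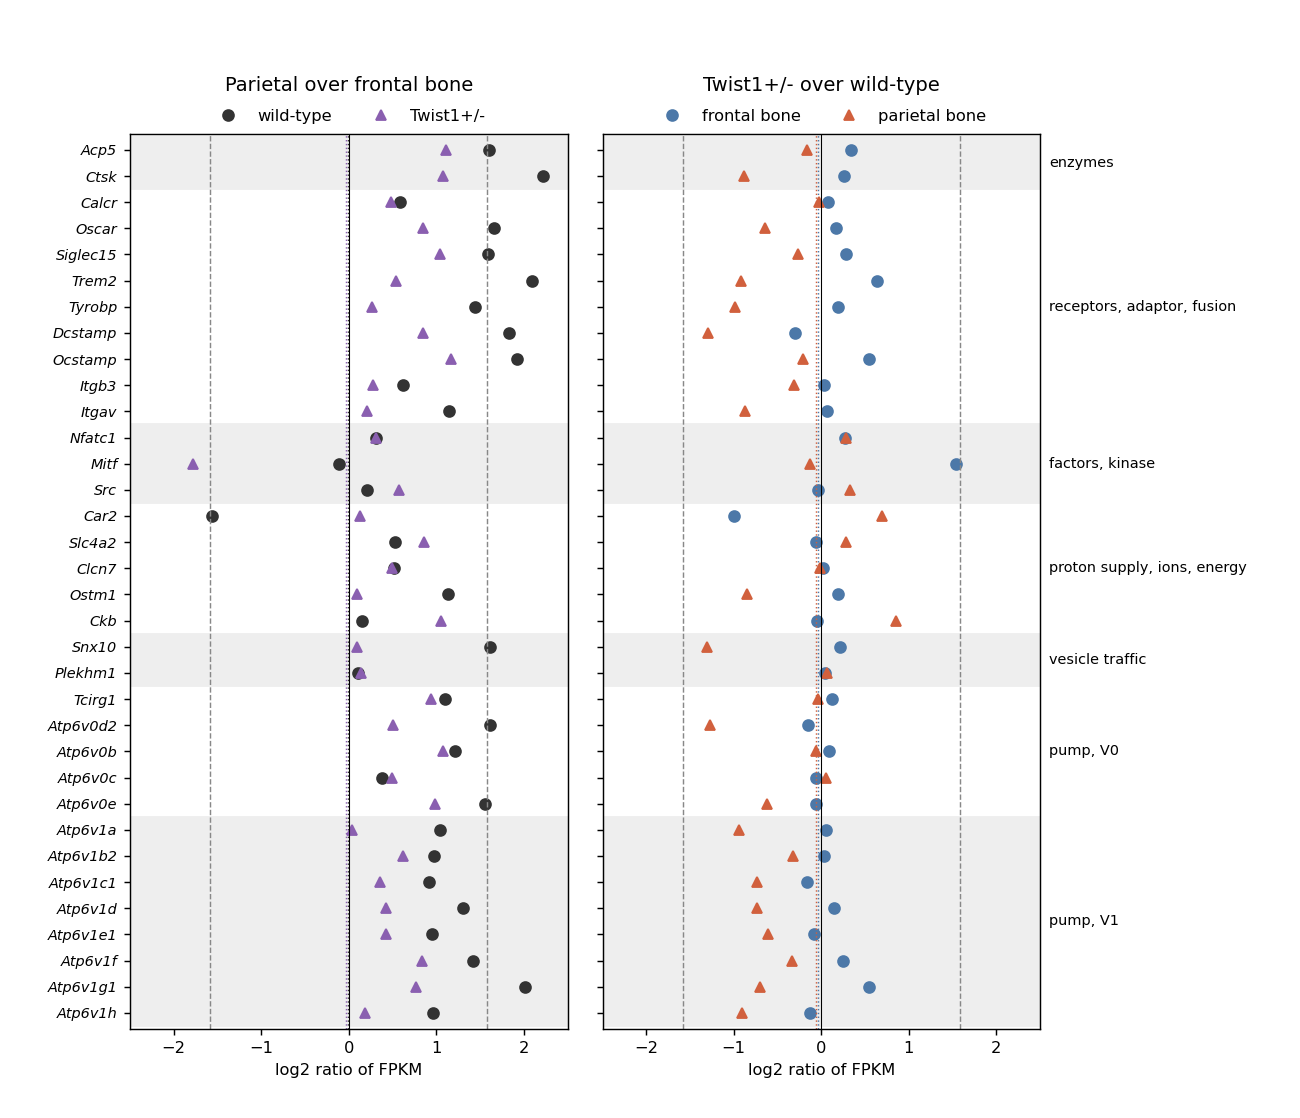
Log2 ratio of FPKM for each of the 34 members in the 4 comparisons, 1 point per gene and comparison. Dotted lines mark the median of all genes and dashed lines a 3-fold difference; 10 members lie past the line in wild-type parietal against wild-type frontal bone and *Mitf* alone in the *Twist1*+/- pair.

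The comparison of parietal with frontal bone in wild-type mice asks how the mesoderm-derived bone differs from the one of neural crest. A gene was called when the FPKM ratio passed 3-fold and the higher library reached 1 FPKM. The study's results count genes past the same fold but with a p-value limit as well, which was not applied here. Of the 34 members 10 were called higher in parietal bone and 0 lower, where 4.07% of 14214 genes were called higher and 9.2% lower. The 10 were *Acp5*, *Ctsk*, *Oscar*, *Siglec15*, *Trem2*, *Dcstamp*, *Ocstamp*, *Snx10*, *Atp6v0d2* and *Atp6v1g1*. Just past the line was *Siglec15* at 3.002-fold, and just short of it was *Car2*, 2.96-fold lower in parietal bone. By any amount 32 members were higher, where 49.5% of all genes were. At 2-fold, 19 members were higher and 1 lower, against 11.2% and 15.6% of all genes. The median of the members was 1.12 on the log2 scale and that of all genes -0.01, and the 13 pump subunits (1.10) and the other 21 members (1.14) had nearly the same median. Scaled to equal *Gapdh*, which was 0.44 higher on the log2 scale in wild-type parietal bone, the median was 0.68, with 27 members higher, 2 past 3-fold upward and *Car2* past it downward.

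In the plot of ratios by gene the wild-type points stand to the right of 0 for all members but *Mitf* and *Car2*.

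The same comparison in *Twist1*+/- mice rests on the 2 other libraries. Here 33 members were higher in the library labelled *Twist1*+/- parietal than in *Twist1*+/- frontal bone, where 47.5% of all genes were higher. None of the 33 passed 3-fold, and *Mitf* was 3.43-fold lower, where 0.846% of 14305 genes were called higher and 3.24% lower. With the GC trend described below subtracted, *Mitf* was -1.46 on the log2 scale and no longer past 3-fold. The nearest member on the other side was *Ocstamp* at 2.25-fold. At 2-fold 6 members were higher (*Acp5*, *Ctsk*, *Siglec15*, *Ocstamp*, *Ckb* and *Atp6v0b*), against 2.98% of all genes, and *Mitf* was lower, against 8.92%. The median of the members was 0.50 and that of all genes -0.03 on the log2 scale. As deposited the median was thus lower than the 1.12 of the wild-type pair, but the size of the gap depended on the setting. At equal *Gapdh* the medians were 0.55 in this pair and 0.68 in the wild-type pair. With the GC trend subtracted they were 0.58 and 0.98. With 1 library per group the difference of the 2 medians was not tested.

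The comparison of genotypes asks what the loss of a *Twist1* allele changes in each bone. The parietal comparison shares its wild-type library with the comparison of the wild-type bones, so the members' values in the 2 comparisons are not independent. In parietal bone none of the 34 members passed 3-fold, where 8.19% of 13914 genes did. As deposited, the largest difference was that of *Snx10*, and at 2-fold *Snx10*, *Dcstamp* and *Atp6v0d2* were lower in the library labelled *Twist1*+/-, against 9.4% of all genes. Against genes of like GC content these genes were no longer past 2-fold, at -0.71, -0.998 and -0.67 on the log2 scale. *Trem2* at -1.45 and *Tyrobp* at -1.28 were past it instead, and *Trem2* had the largest difference. By direction 27 members were lower and 7 higher (*Nfatc1*, *Src*, *Car2*, *Slc4a2*, *Ckb*, *Plekhm1* and *Atp6v0c*), where 53.1% of all genes were lower. The median of the members was -0.33 and that of all genes -0.06 on the log2 scale. This direction depended on the scaling, since at equal *Gapdh* 18 members were higher and 16 lower, with a median of 0.064, and at an equal median of all genes 23 were lower. All 9 surface members and 12 of 13 pump subunits were lower as deposited, with medians of -0.64 and -0.62.

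In frontal bone the genotypes were close. None of the 34 members passed 3-fold, where 3.89% of 14341 genes did, and *Mitf* at 2.90-fold was the nearest and the only member higher past 2-fold, where 4.98% of all genes were. *Car2* was -0.998 on the log2 scale, the lowest of the members. By direction 23 members were higher in *Twist1*+/- frontal bone and 11 lower, where 44.6% of all genes were higher, and at equal *Gapdh* 15 were higher. The median of the members was 0.07 and that of all genes -0.04. The 13 pump subunits lay between -0.17 and 0.54 with a median of 0.03.

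**Figure D3:**
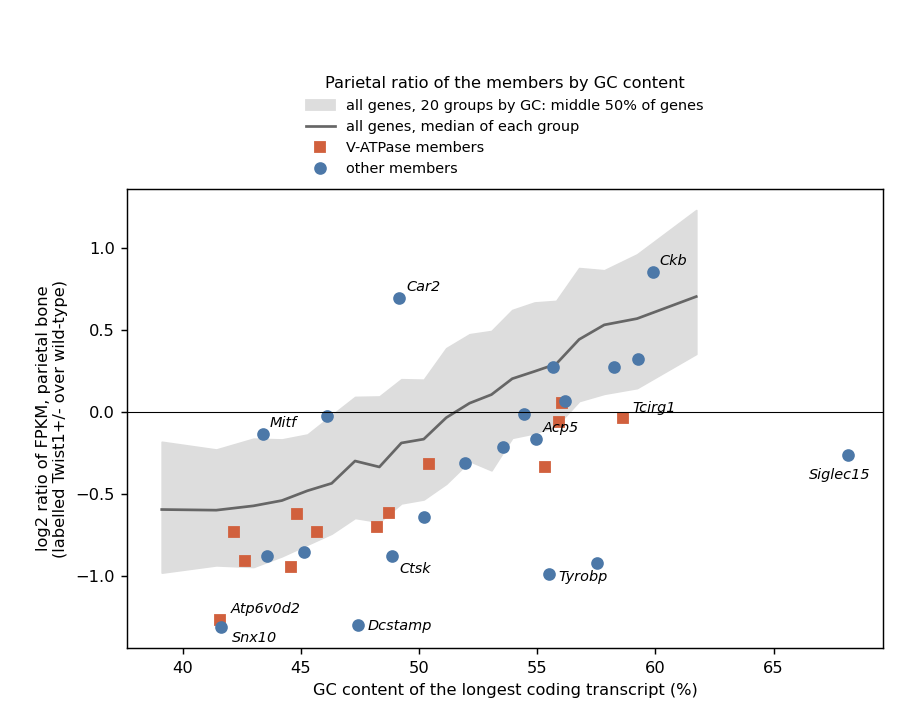
Log2 ratio of FPKM, library labelled *Twist1*+/- parietal over wild-type parietal, against GC content (%) of the longest coding transcript. Squares are the 13 pump subunits, circles the other 21 members, the line is the median of all genes in 20 groups by GC content and the band their middle 50%; all 13 squares lie below the line.

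The ratio between the parietal libraries moved with the GC content of the transcript. Over 13173 genes Spearman's rho between the log2 ratio and GC content was 0.54, and the median ratio went from -0.59 in the lowest of 20 groups by GC content to 0.71 in the highest. The members followed this trend, with a rho of 0.63 over 34 genes and 0.93 over the 13 pump subunits. The points of such a correlation share their 2 libraries, so it describes this pair of libraries only. The 16 members under 50% GC had a median of -0.79, and the 18 at or over 50% a median of -0.11. When the median of genes of like GC content was subtracted, the pair of medians became -0.32 and -0.36. Against that trend 30 of the 34 members were lower, including all 13 pump subunits, with a median of -0.34, and *Calcr*, *Mitf*, *Car2* and *Ckb* were higher. The plot by GC content shows the members spread along the line and mostly below it. In wild-type parietal against wild-type frontal bone rho was -0.13 over all genes, and the member median was 0.98 after the same subtraction. In the *Twist1*+/- pair, parietal against frontal, these values were 0.41 and 0.58.

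**Figure D4:**
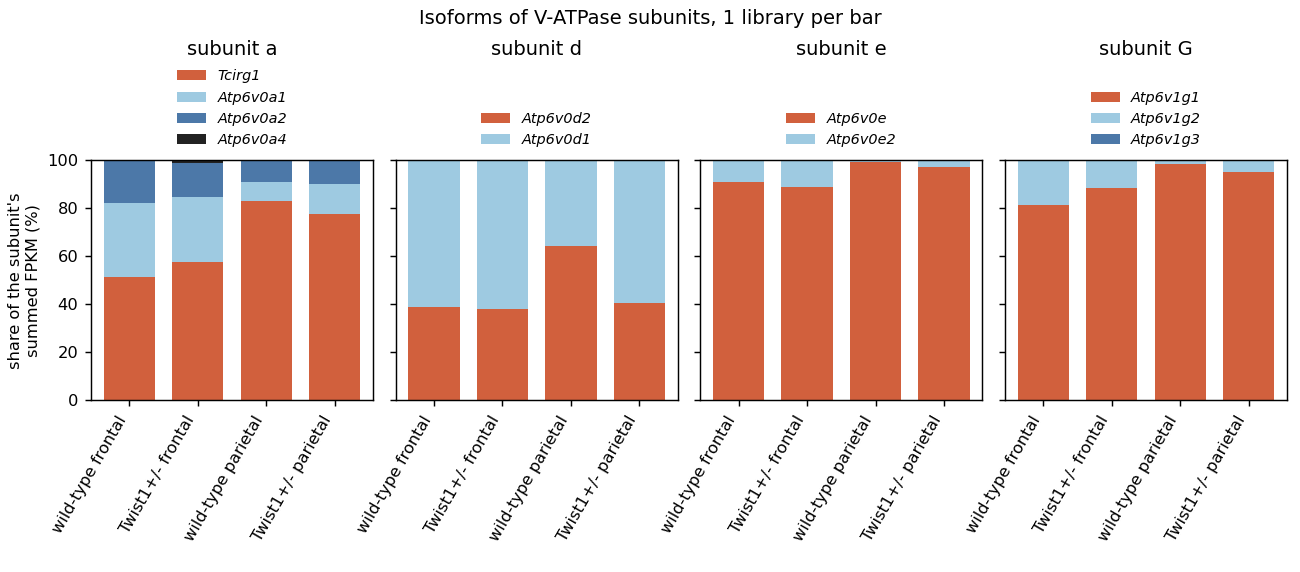
Share (%) of the summed FPKM of pump subunits a, d, e and G that came from each isoform gene, in stacked bars of 1 library each, with the isoform on the list lowest. The share of a3 (*Tcirg1*) was 51.4% and 57.5% in the frontal libraries and 82.9% and 77.6% in the parietal ones.

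The isoforms of a subunit can be set side by side within a library, since they are alternatives for the same place in the pump. *Tcirg1* made up 51.4% of the summed FPKM of the 4 a-subunit genes and 57.5% in the frontal libraries of wild-type and *Twist1*+/- mice, and 82.9% and 77.6% in the parietal ones. *Atp6v0a1*, the isoform that is abundant in neurons, made up 30.7%, 8.14%, 27.2% and 12.5% in the fixed order. Both parietal libraries thus had a larger share of a3, as the plot of isoform shares shows. The brain and myelin markers moved the other way from a3, since all 10 were lower in wild-type parietal than in wild-type frontal bone (median -3.02). In the *Twist1*+/- pair 9 of the 10 were lower in the library labelled parietal (median -0.85). Their part in the shares was not tested. *Atp6v0d2* made up 39.1%, 64.2%, 37.9% and 40.3% of the d subunits, the rest being the ubiquitous *Atp6v0d1* at 80.7, 88.5, 76.2 and 97.5 FPKM. As deposited, the d2 share was high in wild-type parietal bone alone. The shares were not corrected for GC content, which is 41.6% for *Atp6v0d2* and 53.4% for *Atp6v0d1*. In the *Twist1*+/- pair, parietal over frontal, these genes were 0.51 and 0.36 on the log2 scale as deposited. Against genes of like GC content they were 0.89 and 0.32, so the d2 share depended on the GC trend. *Atp6v0e* made up between 88.7% and 99.3% of the e subunits and *Atp6v1g1* between 81.2% and 98.5% of the G subunits, in each case with the highest share in wild-type parietal bone.

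The pump genes that are not on the list behaved differently from those that are. Of 12 other subunits and accessory proteins, 7 reached 1 FPKM in the higher wild-type library, of which 3 were higher and 4 lower in parietal bone, with a median of -0.58 on the log2 scale. Past 3-fold were *Atp6v0e2* (25.1, 5.23, 30.3 and 14.8 FPKM) and *Atp6v1g2* (14.2, 3.84, 11.5 and 7.87 FPKM), isoforms known from brain. Both were lowest in wild-type parietal bone, where the brain and myelin markers were lowest too. Between the parietal libraries 8 of 9 such genes were higher in the one labelled *Twist1*+/-. As deposited their median was 0.69, where the 13 listed subunits had a median of -0.62. The gap was smaller with the GC trend subtracted. The listed subunits then had a median of -0.33, and *Atp6v0a1*, the gene that sets the median of 0.69, was 0.48. Past 3-fold there, and also between the frontal libraries, were *Atp6v1b1* (0.768, 0.0469, 3.13 and 2.31 FPKM) and *Atp6v1c2* (0.591, 0.371, 2.46 and 1.81 FPKM), both higher in the *Twist1*+/- libraries at low levels.

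By its median the wider osteoclast pathway moved less between the wild-type bones, although its genes ranged from -1.56 to 1.63 on the log2 scale. Of 28 other genes of osteoclast formation and signalling, 18 were higher and 10 lower in wild-type parietal bone, with a median of 0.43 on the log2 scale, and 1 passed 3-fold. This was *Gpr137b*, a lysosomal membrane protein, at 15.1, 46.8, 17.5 and 27.5 FPKM. Between the parietal libraries 14 of the 28 were higher and 14 lower, with a median of 0.01. The ligands and decoy receptor that control osteoclast formation (*Tnfsf11*, *Tnfrsf11b*, *Csf1* and *Il34*) had a median of 0.29 between the wild-type bones. Their values ran from -0.57 to 0.41, and none passed 3-fold in any comparison. Between the parietal libraries they were 0.43, -1.07, 0.12 and 1.07 in the order named. Against genes of like GC content these values were 0.91, -0.50, -0.09 and 0.63. Of 23 lysosome genes 18 were higher in wild-type parietal than in wild-type frontal bone, with a median of 0.49, and none passed 3-fold. The median of the 34 members (1.12) was above the medians of these 3 lists, a description with no test.

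Markers of other cells differed between the libraries as well. Of 13 macrophage markers found, 11 reached 1 FPKM in the higher wild-type library, and 8 of these were higher in parietal bone (median 0.64). Between the parietal libraries 10 reached it, and 8 of these were lower in the one labelled *Twist1*+/-, 1 of them past 3-fold. Their median was -0.53 on the log2 scale, where the 9 surface members had -0.64. The summed level of the 13 macrophage markers was 1287, 1159, 1289.5 and 1074 FPKM. *Lyz2*, the most abundant of them, was 898, 477, 945 and 570.2 FPKM, higher in both frontal libraries than in both parietal ones, and *Cd68*, which osteoclasts express too, was 97.4, 247, 97.5 and 226 FPKM. All 12 neutrophil markers were lower in wild-type parietal than in wild-type frontal bone (median -1.28), with a sum of 15989, 7826, 17878 and 10184 FPKM. Osteoblast and osteocyte markers had a median of 0.57, with *Col1a1* and *Col1a2* listed at 0 in all libraries but the wild-type parietal one. Skeletal muscle markers were lowest in wild-type frontal bone, with a sum of 106, 2500.3, 1086 and 1558 FPKM. The part of these cells in the values of the members was not tested.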

How the data were processed

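Calvarial RNA was measured for each genotype and bone, with 1 deposited set of values each (4 libraries), by stranded poly(A) sequencing. Single-end reads of 75 bases were aligned by the authors to mm9 with STAR 2.4.2a, and they deposited 1 FPKM value per gene and library, made with Cuffdiff (Cufflinks 2.2.1). The scaling option is not given in the sources used here, and FPKM values do not give the depth of a library, so no interval or detection limit was computed. Relative depth was read from the lowest values: 1 read was worth 1.30 times as much FPKM in *Twist1*+/- frontal as in wild-type frontal bone, 1.30 times as much in wild-type parietal as in *Twist1*+/- frontal bone, and 0.986 times as much in the library labelled *Twist1*+/- parietal as in wild-type parietal bone. The wild-type frontal library was thus the deepest.

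Ratios of FPKM were formed in Python 3.11.15 with pandas 2.3.3, and the calculation was tested on simulated data. A ratio entered a median when the higher library reached 1 FPKM and neither was 0. The members and the lists were chosen with earlier results of these data known. All members are named. Of the other lists, genes past 3-fold could be named and some are, with the most abundant genes of a marker list and the checks *Twist1* and *Gapdh*. *Atp6v0a1* and *Atp6v0d1* (alternatives to listed isoforms) and the 4 ligands and decoy are named outside this rule, after their values were seen. The melanocyte genes were added after the *Mitf* values were seen. GC content and positions came from the GENCODE annotation of mm9, with a value for 84.6% of genes and all 34 members. Transcripts of the members were compared with mm9 by BLAST+ 2.17.0, and exact stretches of at least 75 bases elsewhere were found only for *Ocstamp* (2.54% of its transcript) and *Atp6v0e* (3.06%). The alternatives were other thresholds, pseudocounts, scalings and a GC correction.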

Additional observations from a re-analysis of the deposited data

Results flagged for a closer look

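Each group holds 1 library, so no sample could be set against others of its group. The genotype ratio went opposite ways in the 2 bones, by more than 1.5-fold each way, in 2 members, a threshold chosen after seeing the data. *Trem2* was -0.92 on the log2 scale in the library labelled *Twist1*+/- parietal against wild-type parietal bone and 0.64 in *Twist1*+/- against wild-type frontal bone. *Car2* was 0.70 in parietal and -0.998 in frontal bone. The difference between the bones was not tested for either gene. The share of all genes that meets this rule was not determined, so it is not known whether these 2 members stand out.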

How the results depend on the processing

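No paired analysis was possible because each group holds 1 library, and for the same reason no replicate could be left out and no spread between replicates is known. At 2-fold instead of 3-fold the members called were 20 in wild-type parietal against frontal bone, 7 in the *Twist1*+/- pair, 3 between the parietal and 1 between the frontal libraries. With the GC trend subtracted 0 members were called in the *Twist1*+/- pair and 1 between the frontal libraries, and with a pseudocount of 1 FPKM 0 were called in the *Twist1*+/- pair. Scaling to equal *Gapdh* left 3 calls between the wild-type bones and 16 members highest in wild-type parietal bone. Under it the median log2 ratio was 0.064 between the parietal libraries, -0.032 between the frontal libraries and 0.68 between the wild-type bones. The pump subunits alone had a median of -0.62 between the parietal libraries. The cause of these shifts was not tested.

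In alternatives chosen after seeing the data, both parietal libraries stayed above both frontal libraries in 30 members at an equal median of all genes, 27 at equal *Gapdh* and 31 with the GC trend subtracted. Leaving out the wild-type frontal, the *Twist1*+/- frontal or the library labelled *Twist1*+/- parietal gave 32 each time. Leaving out a library only drops a condition, so this count could not have fallen and is no check of the pattern. Of 680 values of single genes under an alternative, 616 kept their call and stayed within 1.5-fold of the ratio as deposited, 18 lost a call, 4 gained 1, and 42 moved further or changed sign below the threshold. Values within 1.5-fold can still differ in substance, as for *Tcirg1* between the parietal libraries (-0.03 as deposited, -0.60 with the GC trend subtracted). FPKM values of 5 among 93 genes that reach 1000 FPKM in some library are listed at 0 in another, so a listed 0 need not mean that a gene is silent.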
